A study of Rattus norvegicus with 13 samples.

Results

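Sperm of the DDT lineage was compared with sperm of the control lineage in the third generation (F3) after exposure, over all autosomal windows of 1000 bp, that is, consecutive segments of chromosomes 1 to 20. The rule took the 7 sperm libraries of the 13 libraries in the series and 2618741 of its 2782040 windows. The rats were outbred Hsd:Sprague Dawley SD animals. Gestating F0 females received DDT (dichlorodiphenyltrichloroethane), an organochlorine insecticide, or the vehicle DMSO by daily intraperitoneal injection on embryonic days 8 to 14, and each lineage was then bred within itself, without mating siblings or cousins. The dose is not given in the sources used here. F3 sperm came from the cauda epididymis, the storage end of the duct behind the testis, of animals aged to 1 year, with 3 control and 4 DDT libraries. The injections were given in the F0 generation alone. The labels do not state that sperm replicates came from separate animals, so p-values measure the spread between these libraries.

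MeDIP-seq pulls down DNA fragments with an antibody against 5-methylcytosine and sequences them, so a window gains reads both from denser methylation and from holding more CpG sites. Mature sperm DNA is packed mostly by protamines and is highly methylated outside CpG-rich promoters. Male germ cells lose most of their methylation as primordial germ cells and acquire it again before birth, and the injected days overlap the loss in the F1 fetus. No unprecipitated DNA was analysed here, so a difference in methylation and a difference in the DNA itself, such as a segment present in some outbred animals and absent from others, cannot be told apart at any window below.

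Autosomal totals ran from 101613727 to 188374435 counts in 5 libraries, called deep here (control replicates 1 and 2, DDT replicates 1 to 3). Control replicate 3 held 29297425 counts and DDT replicate 4 held 32450489. These shallow libraries also had another profile: 44.7% and 44.6% of their counts lay in the tenth of windows with most counts, against 32.2% to 35.2% in the deep libraries. Across windows, which are not independent, log2 CPM (counts divided by each library's autosomal total and brought to 1 common depth) correlated at 0.878 between the shallow libraries, at 0.767 to 0.832 between shallow and deep ones, and at 0.913 to 0.957 among the deep ones. Each lineage holds 1 shallow library. Every comparison is therefore given with all 7 libraries and with the 5 deep ones.

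With all 7 libraries, no window separated the lineages at an adjusted p under 0.05. Of 2342565 windows with enough counts to be tested, 0 passed edgeR's quasi-likelihood test with Benjamini-Hochberg adjustment (0% called), the smallest adjusted p being 0.866, and 135139 windows (5.77%) had an unadjusted p under 0.05. DESeq2 called 18 windows, 14 higher and 4 lower in DDT sperm, and all 18 were also called, in the same direction, in the 5 deep libraries, which are among the 7. The authors' deposited table of 2102782 autosomal windows with a p-value holds 25 windows at an adjusted p under 0.05, 11 higher and 14 lower in DDT sperm, and all 25 were called in the same direction in the 5 deep libraries. Since the 5 are part of the 7, such sharing is in large part built in. Leaving out control replicate 3 gave 16 calls, leaving out DDT replicate 4 gave 2, and leaving out any of the other 5 gave 0. A term that lets the 2 shallow libraries differ from the rest in every window gave 199976 calls (124840 higher, 75136 lower).

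The 7-library comparison is shown by its windows of smallest p among those where no DDT library overlapped the controls. The window chr3:60962001-60963000 held 0 counts in every control library and 84, 75, 93 and 2 counts in DDT replicates 1 to 4. Over the 5 deep libraries its signal in DDT was 82.6-fold higher when 3 counts over the 2 control libraries were set as the floor. That value is not a lower limit, since the exact 95% counting interval of the ratio began at 66.7. DDT replicate 4, at 0.0616 CPM, was far below the other DDT libraries at 0.738 to 0.775 CPM. The window chr7:113596001-113597000 also held 0 counts in every control library, and 31, 22, 28 and 20 in the DDT libraries. The difference in the deep libraries was 26.6-fold on the same floor, with an exact interval from 21.1. Here the shallow DDT library was not low: at 0.616 CPM it was the highest of the 4.

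The window chr19:36351001-36352000 had 0.178, 0.26 and 0.171 CPM in control replicates 1 to 3 and 1.11, 1.15, 1.5 and 0.555 CPM in DDT replicates 1 to 4. The lowest DDT library was thus above the highest control, and the log2 difference over 7 libraries was 2.43 (SE 0.36, edgeR adjusted p = 0.866). Among windows lower in DDT, chr6:52199001-52200000 held 44, 48 and 4 counts in the controls and 1, 0, 0 and 0 in the DDT libraries. In the deep libraries the pooled ratio of control to DDT was 93.5, with an exact 95% counting interval of 16.4 to 3734. The window at chr6:52203001-52204000 held 62, 71 and 4 counts in the controls and 5, 4, 2 and 0 in DDT (log2 difference -3.48 over 7 libraries, SE 0.49, edgeR adjusted p = 0.866). Both belong to the longest run of adjacent windows seen with all 7 libraries, 6 windows at chr6:52199001-52205000, with mean signals per window of 0.241, 0.248 and 0.159 CPM in the controls and 0.0369, 0.0279, 0.0174 and 0.0154 CPM in DDT. The window chr14:5265001-5266000 held 51, 86 and 3 counts in the controls and 3, 4, 0 and 1 in DDT.

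In the 5 deep libraries the same comparison called 256450 of 2392953 tested windows (10.7% of them, edgeR adjusted p under 0.05), 164285 higher in DDT sperm (6.87%) and 92165 lower (3.85%). Most differences were small. Of the higher windows, 126300 (76.9%) differed by less than 2-fold and 793 by 4-fold or more, and the median log2 difference was 0.81 (quartiles 0.68 and 0.98, median SE 0.21). Of the lower windows, 66066 (71.7%) differed by less than 2-fold, and 3617 by 4-fold or more, the median being -0.81 (quartiles -1.05 and -0.68, median SE 0.22). The excess of higher calls depended on the scaling: higher windows were 64.1% of calls with TMM scaling, 49.1% with library-size scaling, which moved the median log2 difference of all windows from -0.01 to -0.08, and 52.2% with an offset that removes each library's trend with signal. The groups did not overlap in 97.0% of called windows, against 39.6% of all tested windows. With the shallow libraries added, 15.8% of the called windows that were apart in the deep libraries stayed apart, against 14.7% of all tested windows that were apart in the deep libraries.

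The count in the deep libraries did not fall on leaving out control replicate 1. It rested on control replicate 2 more than on any other library. Without control replicate 2 the count fell most. The lone control library left, replicate 1, is then assumed to vary like the DDT libraries. Without DDT replicate 2 the count was 165565, and DESeq2 called 95645 windows, of which 79.3% were higher. Depth differed between the deep groups: both controls (140442488 and 188374435 counts) were deeper than all 3 DDT libraries (101613727 to 124287442). With every deep library thinned to the smallest, 187847 windows were called, 123790 of them higher. The test took its estimate of spread mostly from all windows together (83.2 prior degrees of freedom), so a window's own spread entered its p little.

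Among windows higher in the deep DDT libraries, those of smallest p fell into short blocks. The window chr3:60962001-60963000, described above, and its neighbour chr3:60963001-60964000 were part of a run of 4 windows. The neighbour held 2 and 0 counts in control replicates 1 and 2 and 55, 55 and 81 in DDT replicates 1 to 3, a pooled ratio of 93.9 (exact 95% counting interval 25.7 to 781). In the shallow pair it held 1 count in each library, so the block was present in the deep DDT libraries and at 1 or 2 counts in the shallow DDT library. The window chr7:115170001-115171000 had 0.199 and 0.154 CPM in the deep controls and 1.84, 1.1 and 1.1 CPM in the deep DDT libraries (log2 difference 3.02, SE 0.24, edgeR adjusted p = 1.68e-15). Its shallow libraries were both higher, at 0.887 CPM in control replicate 3 and 3.14 CPM in DDT replicate 4, and in the same order.

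The window chr2:15644001-15645000 had 0.0712 and 0.0531 CPM in the deep controls and 0.738, 0.64 and 1.02 CPM in the deep DDT libraries (log2 difference 3.78, SE 0.31, edgeR adjusted p = 2.61e-15). Control replicate 3, at 1.3 CPM, lay above all 3 of them and close to DDT replicate 4 at 1.45 CPM, and the difference over all 7 libraries was 1.66 (SE 0.88). The window chr12:17079001-17080000 had 1.26 and 1.14 CPM in the deep controls against 4.68, 4.94 and 4.96 CPM in the deep DDT libraries (log2 difference 2.10, SE 0.17, edgeR adjusted p = 1.09e-14). In the shallow pair it had 1.23 CPM in the control and 1.54 CPM in the DDT library. The DDT libraries thus split, with replicate 4 near the controls.

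Of the 5 windows of smallest p lower in the deep DDT libraries, 4 lay in a single run of 8 windows, chr14:101987001-101995000. In chr14:101988001-101989000 the deep controls had 2.86 and 2.09 CPM and the deep DDT libraries 0.415, 0.364 and 0.29 CPM (log2 difference -2.72, SE 0.19, edgeR adjusted p = 2.91e-18). Control replicate 3, at 0.307 CPM, stood with DDT replicate 4 at 0.277 CPM and the other DDT libraries, not with its own lineage. The windows at 101989001, 101990001 and 101992001 had log2 differences of -2.30, -2.44 and -2.17 in the deep libraries, and in each of them control replicate 3 (0.273, 0.546 and 0.683 CPM) was below 1 CPM while the deep controls were at 1.95 to 4.19 CPM. The fifth window, chr2:159011001-159012000, had 1.53 and 1.26 CPM in the deep controls, 0.221, 0.157 and 0.105 CPM in the deep DDT libraries (log2 difference -3.05, SE 0.23, edgeR adjusted p = 1.11e-16), 0.102 CPM in control replicate 3 and 0.185 CPM in DDT replicate 4. In all 5 of these windows the 3 control libraries were therefore divided. This is not particular to them. Control replicate 3 was nearer to the deep DDT mean than to the deep control mean in 85.6% of all windows called lower.

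The size of the difference and the share of windows called followed the signal level in opposite directions. Tested windows were ordered by the mean of the deep control and deep DDT CPM and divided into 10 classes of equal size. In the lowest class (up to 0.0863 CPM, 8.26 counts per window on average) 2.58% of windows were called, and in the highest (0.849 to 13.7 CPM, 169 counts) 26.0%. The median size of called differences fell from 2.11 in the lowest class to 1.07 in the fourth and 0.70 in the highest on the log2 scale. The smallest difference that was called also fell, from 1.48 to 0.46. The spread of single libraries around their group mean moved the same way, with a median SD of 0.62 in the lowest and 0.17 in the highest class, so what could be called at low signal was large by construction. Of the 3617 windows at least 4-fold lower, 3220 were in the lowest class. Of the 793 at least 4-fold higher, 470 were.

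Direction also varied with signal. Called windows of the lowest class were mostly lower in DDT (2.22% of the class, against 0.366% higher), and those of the highest class mostly higher (19.9% against 6.04%). Over all tested windows, called or not, the median log2 difference was -0.34 in the lowest class, -0.17 and -0.07 in the next 2, and 0.13 in the highest. In mean signal, the deep controls had 0.064 and 0.0755 CPM in the lowest class and the deep DDT libraries 0.051, 0.0526 and 0.0581 CPM. In the highest class the controls had 1.25 and 1.22 CPM and the DDT libraries 1.36, 1.34 and 1.28 CPM. The groups did not overlap in either class. The median difference of the lowest class minus that of the highest was -0.46, and single libraries deviated from their own group by -0.13 and 0.13 (control) and by -0.06, -0.01 and 0.19 (DDT) on this measure, a pooled SD of 0.16. It was -0.46 with library-size scaling and -0.15 without control replicate 2, and with the offset that removes each library's trend with signal, by its construction, it was 0.0729. The part that the greater depth of the controls plays in this trend was not tested. With 2 libraries against 3, an exact permutation test could not go below p = 0.1.

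**Figure D1:**
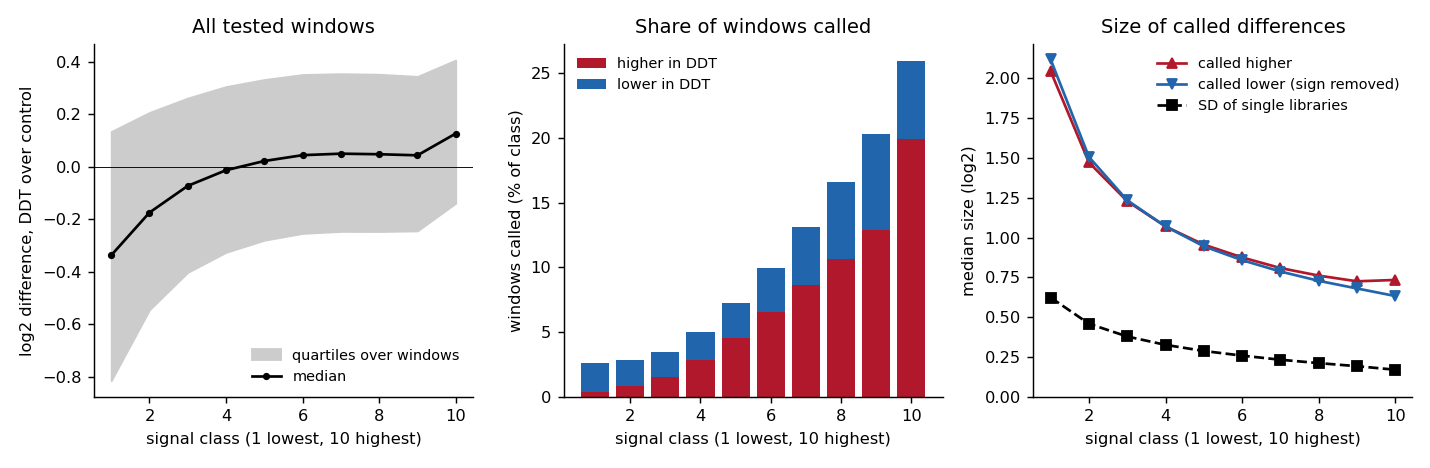
Tested windows of the 5 deep libraries in 10 classes of rising signal, with (left) the median and quartiles of the log2 difference of DDT over control with TMM scaling, (middle) the percent of windows called higher or lower in DDT at an adjusted p under 0.05, and (right) the median size of called differences beside the median SD of single libraries around their group mean. The share called rises from 2.58% to 26.0% while the size of called differences falls from 2.11 to 0.70; the balance of higher and lower calls depends on the scaling (64.1% higher with TMM, 49.1% with library-size scaling).

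Called windows were found on every autosome at similar rates. The share of tested windows called was highest on chromosome 12 (14.4%), chromosome 20 (12.4%) and chromosome 19 (12.3%), and lowest on chromosome 2 (9.79%), chromosome 6 (10.3%) and chromosome 5 (10.3%), around the 10.7% of all windows. Higher calls ran from 6.07% of windows (chromosome 2) to 10.3% (chromosome 12), and lower calls from 3.37% (chromosome 5) to 4.66% (chromosome 20). The chromosomes with more calls were those whose windows had more signal: mean signal was 0.519 CPM on chromosome 12, 0.467 on chromosome 20 and 0.479 on chromosome 19, against 0.394 on chromosome 2, and over the 20 chromosomes, which share the same libraries, mean signal and share called correlated at 0.98. When each window was given the share called of its signal class, 13.3% would be called on chromosome 12, 12.0% on chromosome 20, 12.2% on chromosome 19 and 10.1% on chromosome 2. The observed share was between 0.97 and 1.08 times that value on all 20 chromosomes, the highest being chromosome 12.

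The share of all autosomal counts that fell on each chromosome differed little between lineages. The largest difference between the deep groups was on chromosome 1, with 10.8% in control and 0.185 percentage points more in DDT. With all 7 libraries the control mean was 10.88% ± 0.122 (SD, n = 3) and the DDT mean 11.01% ± 0.0175 (SD, n = 4), with p = 0.0571 by a two-sided exact permutation test over the 35 divisions of the libraries and 0.457 after Benjamini-Hochberg adjustment over 20 chromosomes, the smallest adjusted p of the 20. The deep groups did not overlap on 10 of the 20 chromosomes. With 2 against 3 libraries the smallest p is 0.1, so these differences cannot pass the threshold.

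**Figure D2:**
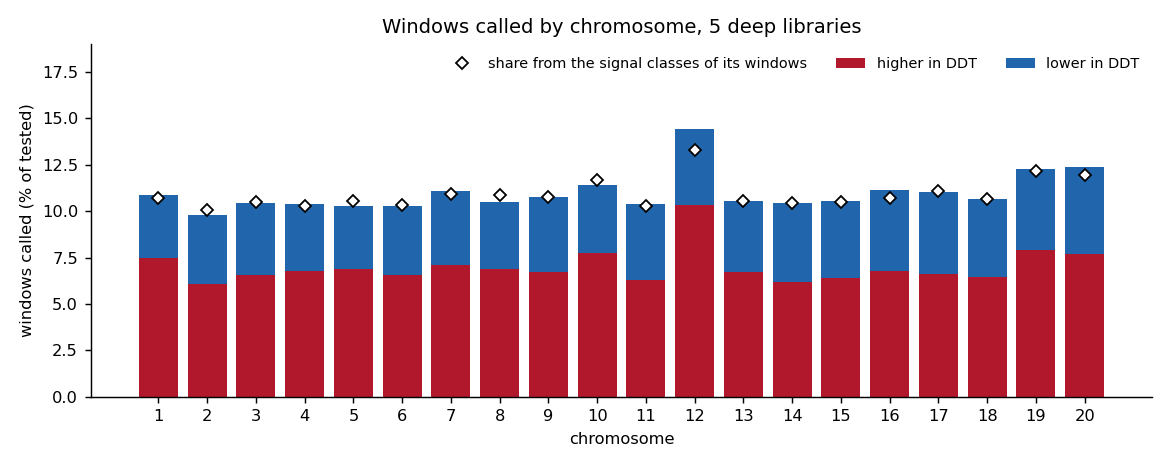
Percent of tested windows called in the 5 deep libraries on each autosome (bars from 0, higher in DDT below and lower in DDT above), with diamonds for the percent that the signal classes of the chromosome's own windows would give. Chromosome 12 is highest at 14.4% and chromosome 2 lowest at 9.79%, and the bars are 0.97 to 1.08 times the diamonds; the split of the bars into higher and lower depends on the scaling.

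At a finer scale, calls were spread through the genome with a few denser blocks. Of 2615 blocks of 1 Mb with at least 500 tested windows, 0 were without a call, the median block had 10.4% of its windows called, and the 5th and 95th percentiles were 6.62% and 15.5%. The block richest in higher calls was chr12:50000001-51000000, where 172 of 952 tested windows were higher and 35 lower. It was followed by chr1:100000001-101000000 (175 windows higher and 21 lower of 971). The block richest in lower calls was chr3:63000001-64000000, with 146 of 986 windows lower and 48 higher, followed by chr16:64000001-65000000 with 110 of 901 lower and 48 higher.

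Summed over 100 kb bins, 3395 of 26168 bins passed the test in the deep libraries (13% called), 1803 higher and 1592 lower in DDT, or 1731 and 1753 with library-size scaling. None of them differed by 2-fold or more. With all 7 libraries, edgeR called 0 bins (0%), with 812 bins at an unadjusted p under 0.05, and it also called 0 bins of 10 kb and 0 of 1 Mb. DESeq2 was not run on bins. The bin of smallest p was chr16:64900001-65000000, with 0.721 and 0.677 CPM per window in the deep controls and 0.363, 0.371 and 0.352 CPM in the deep DDT libraries (log2 difference -0.95, SE 0.04, edgeR adjusted p = 4.07e-07). Control replicate 3 had 0.393 CPM in this bin and DDT replicate 4 had 0.431 CPM, so the shallow control was near the DDT libraries. The next lower bin, chr1:181700001-181800000, had a log2 difference of -0.62 (SE 0.06), and chr3:28800001-28900000 one of -0.38 (SE 0.04).

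The higher bins of smallest p were chr9:10500001-10600000 (log2 difference 0.58, SE 0.05, edgeR adjusted p = 0.000299), chr1:99300001-99400000 (0.54, SE 0.05) and chr12:41700001-41800000 (0.40, SE 0.04). In the first, the deep controls had 0.455 and 0.412 CPM per window, the deep DDT libraries 0.635, 0.655 and 0.654 CPM, and the shallow libraries 0.365 CPM (control) and 0.386 CPM (DDT). The bin on chromosome 1 was the only 1 of these 6 bins in which all 4 DDT libraries (0.27 to 0.379 CPM) stayed above all 3 controls (0.241 to 0.263 CPM). No such share was taken over all bins, so this is no result about these 6. Inside the bin, 32 of 93 tested windows were called higher and 0 lower, against 6.87% and 3.85% of all tested windows. The bin was chosen by smallest p in the same counts, so this excess is in large part built in.

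Differences between lineages were shared by neighbouring windows, and most of this likeness was between adjacent windows. The log2 differences of windows 1 kb apart, which share fragments at their common border, correlated at 0.170 over 2295181 pairs. The correlation was 0.0410 at 2 kb, 0.0297 at 10 kb, 0.0160 at 100 kb and 0.0105 at 1000 kb. The difference between 2 libraries of the same lineage fell off likewise from lower values: between control replicates 1 and 2 the correlation was 0.121 at 1 kb, 0.0230 at 2 kb and 0.0108 at 10 kb, and between DDT replicates 1 and 3 it was 0.111, 0.0246 and 0.0164. For DDT replicate 4 minus control replicate 3, over windows with at least 10 counts in that pair, it was 0.0840 at 1 kb and 0.00626 at 2 kb. These values are descriptions over windows that share libraries and fragments.

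Runs of adjacent windows in one direction were therefore mostly short. At an unadjusted p under 0.01 in the deep libraries, a rule met by 321423 windows (13.4% of those tested), 236997 windows (73.7%) stood alone and 32913 pairs were found. Runs of at least 3 windows numbered 5684 and held 18600 windows, 5.79% of those meeting the rule. In 3891 of these runs the signal was higher in DDT and in 1793 lower, with median log2 differences of 0.80 and -0.74. With library-size scaling the balance turned round, to 2362 higher and 3711 lower, and with the trend offset to 2482 and 3849. Windows in these runs had more signal (median 0.66 CPM) than all tested windows (0.312 CPM), and 34.3% of them lay in the highest signal class. All 20 chromosomes had more higher than lower runs with TMM scaling, and chromosome 12 had most for its size, 192 higher and 48 lower among 48076 tested windows, against 172 and 80 among 135648 on chromosome 6, which had fewest.

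With all 7 libraries, where 1.06% of tested windows met the same rule, 44 runs of at least 3 windows were found, 20 higher and 24 lower, against 5684 in the deep libraries. Leaving out control replicate 2 from the deep libraries left 1324 runs, and leaving out DDT replicate 2 left 3390. Only 7 runs of the deep libraries reached 10 windows, 2 higher and 5 lower. Calls inside a run are in large part built in by the rule. Of the 5684 runs, 5664 held a called window, and in 3478 every window was called. Signals of runs are given as mean CPM per window.

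The longest run, 36 windows at chr16:37748001-37784000, was higher in DDT by a small amount. The deep controls had 3.78 and 3.57 CPM and the deep DDT libraries 5.75, 5.42 and 4.72 CPM, with 0.60 the median log2 difference of its windows and 35 of them called (smallest edgeR adjusted p = 0.000474). Control replicate 3 had 15.8 CPM and DDT replicate 4 had 15.0 CPM, so this run was highest in the shallow libraries of both lineages and did not separate the 7. The 50 kb on each side had 0.171 CPM in the deep controls and 0.184 CPM in the deep DDT libraries on average. On the left the adjoining windows held 0 counts in every sperm library. On the right the signal of control replicate 1 fell unevenly over several windows. It was 1.98 CPM in the last window of the run, 1.44 CPM in the next, 1.97 CPM in the one after that and 0.719 CPM in the sixth.

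The next longest higher run, 11 windows at chr1:100478001-100489000, had 2.83 and 2.14 CPM in the deep controls, 4.5, 4.48 and 4.6 CPM in the deep DDT libraries, 2.13 CPM in control replicate 3 and 1.95 CPM in DDT replicate 4. The deep DDT libraries agree closely with each other here and the shallow DDT library lies below all controls. The run of 9 windows at chr7:133124001-133133000 had 0.975 and 1.08 CPM in the deep controls and 1.63, 1.6 and 1.36 CPM in the deep DDT libraries, with both shallow libraries lower at 0.645 CPM (control) and 0.592 CPM (DDT). The run of 8 windows at chr20:5757001-5765000 had 0.77 and 0.833 CPM against 1.74, 1.83 and 1.46 CPM, and 0.777 and 0.828 CPM in the shallow control and DDT libraries.

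The run of 9 windows at chr19:29080001-29089000 was the 1 among the 5 longest in each direction whose groups stayed apart in all 7 libraries. It had 0.0728, 0.0855 and 0.148 CPM in control replicates 1 to 3 and 0.198, 0.21, 0.233 and 0.236 CPM in DDT replicates 1 to 4, with a median log2 difference of 1.47 in the deep libraries. It opens a cluster of 5 higher runs that spans chr19:29080001-29124000, where runs in one direction were joined across gaps of up to 20 kb, a choice made after their positions were seen. Over the cluster the controls had 0.174, 0.201 and 0.129 CPM and the DDT libraries 0.328, 0.289, 0.375 and 0.233 CPM. A similar cluster of 5 higher runs at chr19:26997001-27051000 had 0.139, 0.182 and 0.135 CPM in the controls and 0.292, 0.25, 0.331 and 0.241 CPM in DDT. In both chromosome 19 clusters the shallow pair and the deep libraries differed by similar amounts, 0.85 and 0.84 on the log2 scale in the pair against 0.82 and 0.86. The 50 kb on each side were also higher in the deep DDT libraries, at 0.704 against 0.565 CPM for the first cluster and 0.65 against 0.537 CPM for the second. Of the 12 clusters examined, out of 5286, the groups of all 7 libraries were apart in 3. Of all tested windows apart in the deep libraries, 14.7% were apart in all 7. So few clusters set against such a share are no result about them. The third, chr1:181722001-181741000, was lower in DDT. Its log2 difference was -1.17 in the deep libraries and -0.05 in the shallow pair.

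Among the 5 longest runs in each direction, the median log2 differences of the lower ones (-1.43 to -1.86) were larger in size than those of 4 of the 5 higher ones. Over all runs of at least 3 windows this did not hold: 699 higher and 245 lower runs differed by 2-fold or more. The longest lower run, 20 windows at chr16:64917001-64937000, had 0.771 and 0.763 CPM in the deep controls and 0.255, 0.256 and 0.164 CPM in the deep DDT libraries, a median log2 difference of -1.86 with 20 of 20 windows called. The shallow libraries had 0.343 CPM (control) and 0.396 CPM (DDT), in the opposite order and on the DDT side. The run of 12 windows at chr16:64940001-64952000 had 0.912 and 0.876 CPM in the deep controls, 0.31, 0.329 and 0.365 CPM in the deep DDT libraries, and 0.364 and 0.347 CPM in the shallow control and DDT libraries. With 5 shorter ones these formed the largest cluster, 63 windows in 7 runs within the 87 kb of chr16:64896001-64983000. Over these 87 kb the deep controls had 0.788 and 0.745 CPM, the deep DDT libraries 0.341, 0.342 and 0.333 CPM, control replicate 3 had 0.388 CPM and DDT replicate 4 had 0.407 CPM. In the 50 kb on each side the deep groups were close, 0.306 CPM in control and 0.327 CPM in DDT.

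**Figure D3:**
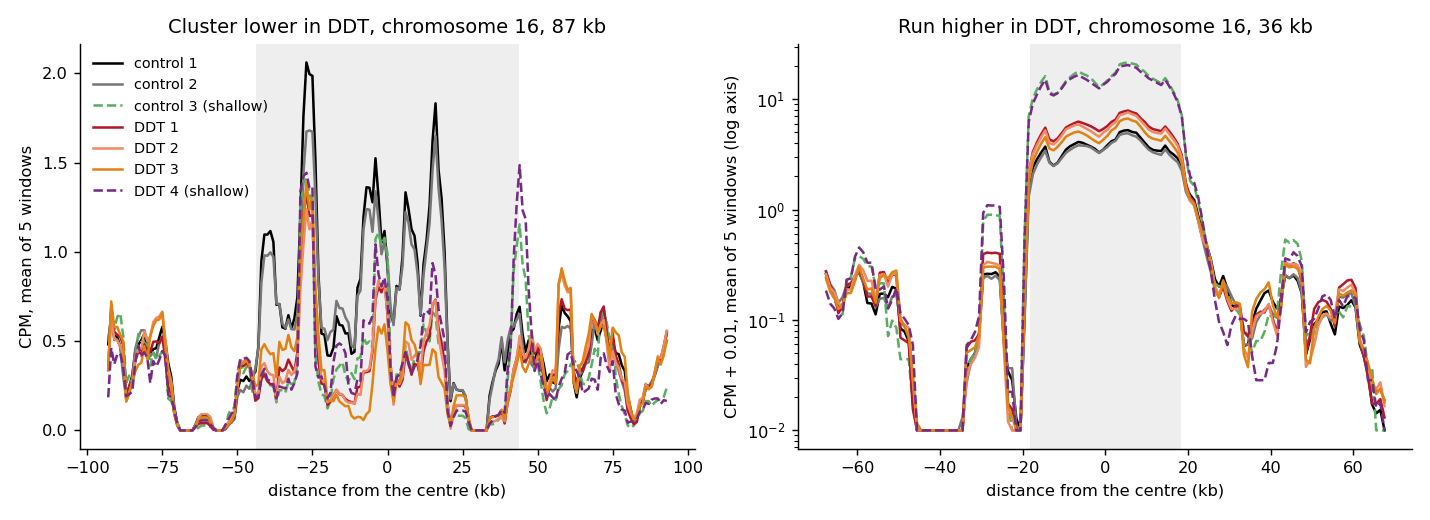
Signal across the largest cluster lower in DDT (left, 87 kb, linear axis) and the longest run higher in DDT (right, 36 kb, log axis), both on chromosome 16, as mean CPM of 5 neighbouring windows against the distance in kb from the centre, 1 line per library, shallow libraries dashed and the region shaded. On the left control replicates 1 and 2 lie above the other 5 libraries over most of the shaded region; on the right the shallow libraries of both lineages lie above all deep ones.

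The runs of 19 and 16 windows at chr1:39467001-39486000 and chr1:39487001-39503000 adjoin each other. In the first, control replicates 1 and 2 differed, at 1.68 and 0.905 CPM, and the deep DDT libraries had 0.678, 0.638 and 0.562 CPM. In the second, the controls had 0.863 and 0.369 CPM and DDT 0.25, 0.183 and 0.276 CPM. Control replicate 3 had 0.451 and 0.139 CPM in the first and second, below all deep DDT libraries in both, so control replicate 1 alone was far above the rest. The run of 13 windows at chr7:10262001-10275000 had 0.97 and 0.911 CPM in the deep controls and 0.328, 0.344 and 0.255 CPM in the deep DDT libraries, with 0.386 CPM in control replicate 3 and 0.453 CPM in DDT replicate 4. Again 2 of the 3 controls stood apart from all other sperm libraries.

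**Figure D4:**
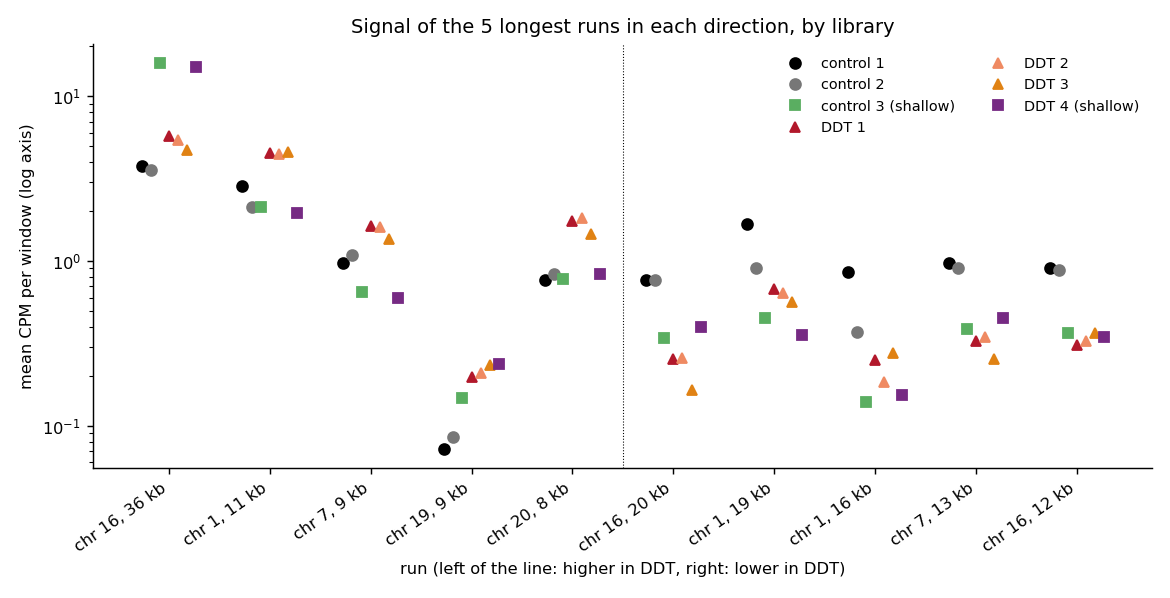
Mean CPM per window (log axis) of the 5 longest runs higher in DDT (left of the dotted line) and the 5 longest lower in DDT (right), 1 point per sperm library, labelled by chromosome and length. In the lower runs control replicate 3 sits with the DDT libraries, for example at 0.343 CPM against 0.771 and 0.763 CPM of the other controls in the run of 20 kb; the run of 9 kb on chromosome 19 is the 1 in which the 7 libraries separate by lineage.

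The shallow pair took no part in choosing the deep calls, so its own difference, DDT replicate 4 over control replicate 3, was read at those windows. Where the pair had at least 10 counts, it had the same direction as the deep libraries in 57.3% of 150115 windows called higher and 58.8% of 67756 called lower, against 51.8% of the windows not called. Summed over all higher windows, whatever their counts in the pair, the log2 difference was 0.73 in the deep libraries and 0.08 in the shallow pair. Over all lower windows it was -0.83 and -0.17. Deep values are enlarged here, since the windows were chosen on them. Over all 793 higher windows with a difference of 4-fold or more, the summed values were 2.27 and 0.33. Over all 3617 such lower windows they were -2.52 and -0.24. Few of these windows had at least 10 counts in the pair, 224 of the higher and 68 of the lower ones. In these 68 the direction was the same in 76.5% and the median difference of the pair was -0.67. With 1 library a lineage, this pair allows no test.

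At the level of runs, the pair had the direction of the deep libraries in 2431 of 3889 higher runs with enough counts (62.5%) and in 1161 of 1785 lower runs (65.0%). The groups of all 7 libraries did not overlap in 678 of the 3891 higher runs (17.4%) and in 209 of the 1793 lower runs (11.7%). Nearly all runs were apart in the deep libraries by their choice. Of tested windows apart in the deep libraries with the deep DDT mean higher, 12.4% were apart in all 7. Of those with it lower, 16.4% were. The higher runs were thus above and the lower runs below the share of their direction. A run averages several windows, so these shares are not of like units. Control replicate 3 was nearer to the deep DDT mean than to the deep control mean in 64.7% of higher and 95.5% of lower runs, and DDT replicate 4 was nearer to the deep control mean in 32.9% and 1.95%. Over all tested windows with the deep DDT mean higher, called or not, these shares were 46.7% for control replicate 3 and 52.5% for DDT replicate 4. Over those with it lower they were 71.3% and 27.5%. Windows called higher, which are more like those in runs, had 56.0% and 42.4%, and windows called lower 85.6% and 10.8%. Both shallow libraries were nearer to their own lineage in 249 higher (6.40%) and 64 lower runs (3.57%). The share was 7.01% of windows called higher, near that of the higher runs, and 9.52% of windows called lower. It was 10.9% of all tested windows. The part that the shallow libraries' depth and profile play in these values was not tested.

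**Figure D5:**
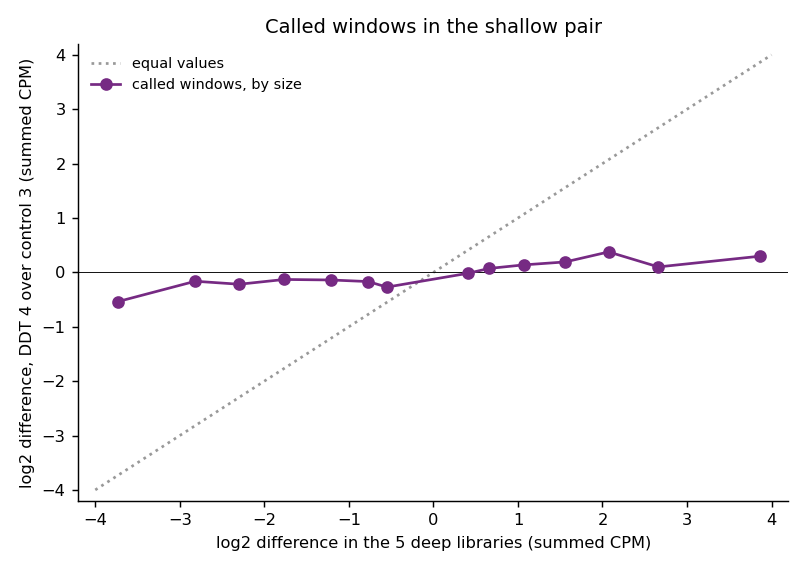
Windows called in the 5 deep libraries, grouped by the size of their log2 difference, with the difference in summed CPM of the deep libraries (x axis) and of DDT replicate 4 over control replicate 3 (y axis), both on the log2 scale; the dotted line marks equal values. The shallow pair stays between -0.54 and 0.38 while the deep difference runs from -3.73 to 3.86.

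The series also holds morulae, early embryos made by injecting sperm of each lineage into oocytes, with 3 libraries for each lineage. The control and DDT morula libraries did not overlap in 1 of the 15 windows named above, 0 of the 10 longest runs and 0 of the 6 bins, against 10.1% of all windows tested in sperm and 10.2% of those called in the deep sperm libraries. So few members set against such a share are no result about these regions. The 1 window was chr6:52203001-52204000, lower in DDT morulae (0.0793 ± 0.00336 CPM, SD, n = 3) than in control morulae (0.18 ± 0.0337 CPM, SD, n = 3), as in sperm. Over the 87 kb cluster of chromosome 16, control morulae had 1.19 ± 0.136 CPM and DDT morulae 1.2 ± 0.0327 CPM (SD, n = 3 each), both above all sperm libraries.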

How the data were processed

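MeDIP-seq read counts per 1000 bp window were taken as deposited by the authors, per the file headers. The build is Rnor_6.0 and the tools listed are FastQC, Trimmomatic, SAMtools, Bowtie2 and edgeR, with no version, per the submitters' processing notes; whether duplicate reads were removed is not given in the sources used here. The authors' deposited log2 difference, p-value and adjusted p-value were read for a count of calls only, and 13 deposited RPKM columns were not used. No gene names or sequences of that build were used here, so windows are given by position.

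Tests used R 4.3.3 and edgeR 4.0.16 (quasi-likelihood, TMM scaling, two-sided) on autosomal windows whose counts averaged 5 or more per library (bins, 50 or more), adjusted over all windows tested. SE is the effect divided by the root of its F. CPM divides by autosomal counts and has no further scaling. DESeq2 1.42.0 was an alternative. Depth limits precision: 3 counts, the floor, are 0.0159 CPM in the deepest and 0.102 CPM in the shallowest sperm library. Floors and counting intervals hold for counting error alone, because PCR copies of a molecule cannot be recognised. In simulated data with 100 windows changed 2-fold and 100 changed 4-fold, the test recovered 36 and 81 with the 5 libraries (2 false calls) and 4 and 58 with all 7 (4 false calls). The simulation gave all libraries a common profile and all windows a common spread, and left every other window unchanged. The real libraries differ in these points, so it gives no rate of false or missed calls for them. Replicates differed by more than sampling noise in every pair of a lineage, the ratio of the squared difference to counting noise being at least 1.54.

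The libraries called deep, the windows, the classes and the tests were chosen with earlier results of these data known. Named were the 5 windows of smallest p per direction with groups apart in the 5 libraries and 3 in all 7, the 5 longest runs per direction (unadjusted p under 0.01, no gap), 3 bins per direction and 3 chromosomes with the highest and lowest share called. Alternatives are given in the closing section; the reading of the shallow pair, the joining of runs into clusters, and runs under a replicate block or with a term for the shallow libraries were added after seeing the data.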

Additional observations from a re-analysis of the deposited data

Results flagged for a closer look

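Among the 38 named values (windows, runs, bins and chromosome shares) in the 4 DDT sperm libraries, 8 had 1 library far from the other 3, a gap, as a share of the whole range, past Dixon's 95% critical value for 4 samples. Chance does so in about 1 in 20 groups of independent values, but most of these members were chosen where DDT replicates 1 to 3 stand apart from the controls, without replicate 4, and they share libraries, so that rate is no measure for them. In 7 of the 8 that library was DDT replicate 4. The gap was 0.948 of the range in the window chr3:60962001-60963000 and 0.916 in chr12:17079001-17080000, where replicate 4 was lowest. It was 0.956 in the run chr1:100478001-100489000, 0.924 in the bin chr9:10500001-10600000 and 0.851 in the bin chr12:41700001-41800000, with replicate 4 again lowest, and 0.9 in the run chr16:37748001-37784000, with replicate 4 highest. The share of counts on chromosome 2 had a gap of 0.883. In the window chr6:52199001-52200000 the value is 1 because DDT replicate 1 held 1 count and the others 0.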

How the results depend on the processing

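With all 7 libraries, the count of 0 windows became 18 with DESeq2, 13 at an unadjusted p under 1e-05, 25 from the deposited p-values, 199976 with a term for the shallow libraries, and 0 to 16 on leaving out 1 library; 16 of 22 alternatives gave 0, and all 12 gave 0 bins. In the 5 deep libraries, 256450 windows became 95645 with DESeq2, 64084 with a 2-fold minimum, 36585 at an unadjusted p under 1e-05, and 55269 to 262624 on leaving out 1 library. The 3395 bins became 5271 with the trend offset, 47600 at 10 kb, 206 at 1 Mb, and 1351 to 4687 on leaving out 1 library, the lower counts being without control replicate 2, DDT replicate 1 (1767) or DDT replicate 2 (1531). The 5684 runs became 1372 at p under 0.001, 19227 at p under 0.05, 11188 where 1 window may be skipped, 44 with all 7 libraries, and 1324 to 5912 on leaving out 1 library. The class difference of -0.46 became 0.0729 with the trend offset, which removes it by construction, and -0.62 to -0.15 on leaving out 1 library. The 10 windows named from the deep libraries kept direction and call in 158 of 158 refits. The 6 named from all 7 kept direction in 111 of 111 and passed the test in 17. Refits that gave no value for a window are not counted. These windows were chosen by smallest p in the same counts, so keeping direction, and for the 10 the call, is in large part built in. The cause of the other changes was not tested.

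The labels do not state that replicate numbers pair the libraries. Deviations from the group means correlated at 0.160, 0.276 and -0.395 for numbers 1 to 3, and control replicate 1 was closest to DDT replicate 3 (0.372). The largest value, 0.505, was between the shallow libraries, control replicate 3 and DDT replicate 4. Each group mean includes a shallow library with another profile, so these values cannot decide whether numbers pair. With the replicate block the deep libraries gave 175176 windows (126635 higher, 48541 lower), 4388 bins and 3781 runs, and all 7 libraries gave 0 windows and 0 bins.

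Depth limits what the shallow pair can show at low signal, where 3 counts are 0.102 and 0.0924 CPM.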
